A study of Mus musculus with 2 samples.

Results

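Ccl21a, Ccl19, Cxcl12 and Cxcl13 are the homeostatic chemokines of lymph nodes. They were taken by symbol from the deposited gene list, 4 of 32285 genes, and are described in endothelial and stromal cells of mouse lymph nodes. These small secreted proteins are made without inflammation and guide leukocytes to and within the node. CCL21 and CCL19 are both ligands of the receptor CCR7 on naive T cells and dendritic cells, CXCL12 is the ligand of CXCR4, and CXCL13, the ligand of CXCR5, draws B cells into follicles. High endothelial venules, the vessels through which lymphocytes enter the node, are known to present CCL21 on their surface, while fibroblastic reticular cells are the classical source of CCL19, CCL21 and CXCL12, and follicular dendritic and marginal reticular cells that of CXCL13.

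Lymph node endothelial cells of mice that had all received tamoxifen, either wild-type (WT) or Xbp1-KO, were profiled in 2 droplet libraries. XBP1 is a factor that expands the secretory pathway when the endoplasmic reticulum is under load. Each library mixed 4 pools, told apart by hashtags (antibody-borne barcodes): HT4 marked WT and HT6 Xbp1-KO cells of peripheral nodes, and HT5 marked WT and HT7 Xbp1-KO cells of mesenteric nodes, so each group has n = 2 pools. The labels give neither the Cre line, the deleted exon, the strain, age or sex nor the number of animals per pool, so p-values measure the spread between these pools, which may be technical in part. Leukocytes had been depleted with anti-CD45 beads and endothelial cells sorted, so the few stromal cells are those that passed a gate meant for other cells and cannot stand for the node's stroma.

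By the annotation of mouse build GRCm38, Ccl21a (ENSMUSG00000094686) lies on chromosome 4 at 42772860 to 42773993 and Ccl19 (ENSMUSG00000071005) at 42754525 to 42756577 of the same minus strand, 16282 bases apart. Cxcl12 (ENSMUSG00000061353) lies on chromosome 6 at 117168535 to 117181367 and Cxcl13 (ENSMUSG00000023078) on chromosome 5 at 95956951 to 95961068, both on the plus strand. The values are counts of whole genes and do not separate exons, introns or isoforms. The gene list holds 2 further rows with these symbols on unplaced scaffolds, with 2 and 0 counts, which were added to their gene for levels but not for the edgeR and DESeq2 tests. It also holds 7 rows for copies of Ccl21a, 6 of them at 0 and 8 counts in all. Because these copies are near-identical, reads that match several of them cannot be assigned, and the Ccl21a level is uncertain to that extent.

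The 250 bases before the RefSeq transcription start are shown for 3 of the genes so that these stretches can be compared, 5′ to 3′ on the gene's strand, on GRCm38.p6. The windows are chr4:42773992-42774241 (minus) for Ccl21a, chr6:117168285-117168534 (plus) for Cxcl12 and chr5:95956689-95956938 (plus) for Cxcl13. That of Ccl19 is not shown, because RefSeq and the annotation used for the coordinates above place its start differently (42756365 and 42756577), and 212 of its 250 bases lie inside the gene by the latter. Capitals mark matches to TATAAA or ATAAAT (variants of the TATA box) and to GGGCGG (the core of the GC box, written CCGCCC where it lies on the opposite strand).
Ccl21a: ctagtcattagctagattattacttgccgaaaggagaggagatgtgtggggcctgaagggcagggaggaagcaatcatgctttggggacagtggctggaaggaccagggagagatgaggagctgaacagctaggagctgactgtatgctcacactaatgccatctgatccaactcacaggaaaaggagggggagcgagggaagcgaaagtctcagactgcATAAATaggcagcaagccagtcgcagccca
Cxcl12: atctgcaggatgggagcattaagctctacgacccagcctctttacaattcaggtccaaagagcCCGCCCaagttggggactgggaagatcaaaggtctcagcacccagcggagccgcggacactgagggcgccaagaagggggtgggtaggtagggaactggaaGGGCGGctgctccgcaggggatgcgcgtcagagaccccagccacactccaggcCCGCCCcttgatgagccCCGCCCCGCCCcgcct
Cxcl13: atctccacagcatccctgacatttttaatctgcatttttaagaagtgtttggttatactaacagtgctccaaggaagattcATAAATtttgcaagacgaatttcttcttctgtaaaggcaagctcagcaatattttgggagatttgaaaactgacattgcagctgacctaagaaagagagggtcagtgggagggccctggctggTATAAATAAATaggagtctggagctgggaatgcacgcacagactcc

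Both strands were searched, and the 3 motifs were chosen after the sequences had been seen. ATAAAT lies 30 to 25 bases before the start of Ccl21a. Cxcl13 has TATAAA at 46 to 41 bases, which overlaps an ATAAAT at 45 to 40, itself overlapping another at 41 to 36, and a further ATAAAT at 169 to 164. Among the 3 windows, that of Cxcl12 alone holds GGGCGG, in 5 matches, 4 of them on the opposite strand, of which 2 share a base. Among 32851 RefSeq promoters of the same length, TATAAA occurs in 12.4%, ATAAAT in 12.5% and GGGCGG in 32.7%. Cxcl12 has 64.4% G or C and 14 CG pairs, Cxcl13 42% and 2 pairs, and Ccl21a 52.8% and 4, against medians of 52.4% and 6 pairs over all promoters. These matches are descriptions of the letters only.

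Library 1 held 7709 barcodes with 33024170 UMIs (unique molecular identifiers, each marking a captured RNA molecule) and library 2 held 2903 barcodes with 14744778, and 9275 cells with a single hashtag passed the filters, 409 to 2293 per pool. The libraries shared 2 cell barcodes. Xbp1 itself was at 139.8, 206, 129.1 and 259.9 CPM (counts scaled to a total of 1000000 UMIs) in the WT pools and 65.88, 131.5, 79.11 and 140.6 in the Xbp1-KO pools of the same tissues in the same order, lower in the Xbp1-KO pool of each tissue in each library. Xist, the RNA of the silenced X chromosome, was found in 73.1% and 82.5% of Xbp1-KO cells and at most 1.77% of WT cells in library 1, and the reverse held in library 2, with 76.8% and 85.4% of WT cells and at most 0.608% of Xbp1-KO cells. Within either library, genotype and the level of Xist therefore cannot be told apart.

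Cells were clustered without the 4 chemokines, Xbp1 or the pathway genes described further on, and clusters were named from marker genes. Of the named clusters, 1 with 422 cells forms the high endothelial-like class (median 8213.5 UMIs per cell), in which 6 of 7 high endothelial markers were detected and Spon2 was at 0. Other blood, lymphatic and stromal cells also held 7, 6 and 5 of these markers above 0, at lower levels. Together the 7 were at 16890 to 273300 CPM in high endothelial-like pools, against at most 1453 in other blood, 7020 in lymphatic and 2283 in stromal pools. Other blood endothelial cells number 4460 in 6 clusters (2600 UMIs), lymphatic cells 3702 in 5 clusters (5256 UMIs) and stromal cells 121 in 1 cluster (3924 UMIs). Ptprc, which encodes CD45, was at 0 in high endothelial-like, other blood and stromal cells. The 8 blood-cell markers together were at 0 to 13.87 CPM in lymphatic, 0 to 95.54 in high endothelial-like and 0 to 13.78 in stromal pools. In other blood pools they were at 2.969 to 2695 CPM, although Cd3e and Cd3d were also at 0 there. A further blood cluster of 435 cells led by Prnd and Kit fitted no marker set and is given as unnamed. High endothelial-like cells were rare in peripheral pools, with 14, 30, 6 and 5 cells, against 103, 124, 55 and 85 in mesenteric pools, so the peripheral values of this class rest on few cells.

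Ccl21a, the main CCR7 ligand of the node, was concentrated in high endothelial-like cells. That class, 4.55% of all cells, held 84.46% of all Ccl21a UMIs, and 361 of its 422 cells (85.55%, exact 95% binomial interval 81.82 to 88.76) carried at least 1. Ccl21a was at 6730 and 24450 CPM in WT peripheral cells of libraries 1 and 2, at 20050 and 7134 CPM in Xbp1-KO peripheral cells, at 19990 and 20220 CPM in WT mesenteric cells and at 19310 and 18950 CPM in Xbp1-KO mesenteric cells. Of these pools 6 lay between 18950 and 24450, and both low values came from peripheral pools, of 14 and 5 cells. The mean was 17110 ± 6503 CPM (SD, n = 8 pools). In other blood cells Ccl21a was at 152.6 ± 107.7 CPM and in lymphatic cells at 175.4 ± 167.7 CPM (SD, n = 8 each), and no pool of either class reached the lowest high endothelial-like pool.

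Per pool, Ccl21a was 7.22 ± 0.37 (SE) higher on the log2 scale in high endothelial-like than in other blood cells and 7.28 ± 0.37 higher than in lymphatic cells (edgeR quasi-likelihood test with the pool as a block, adjusted p = 1.42e-18 and 6.32e-19, higher in 8 of 8 pools). Lymphatic and other blood cells differed by -0.06 ± 0.31 (adjusted p = 0.88), a difference smaller than its error. Many genes separate these classes: 39.6% of the 9191 genes tested were called between high endothelial-like and other blood cells (15.9% higher and 23.8% lower in the former), 60% between lymphatic and other blood cells (35.2% and 24.8%), and 49.5% between high endothelial-like and lymphatic cells (16.6% and 32.9%). Since the classes were built from other genes of the same cells, such calls describe how steady a difference was over pools. Cxcl13 had too few counts for any of these tests.

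Ccl19, the other CCR7 ligand, is the gene next to Ccl21a, yet its counts lay elsewhere. Stromal cells, 1.305% of all cells, held 845 of its 1338 UMIs (63.15%), and lymphatic cells held 447 (33.41%). A single stromal cell of the Xbp1-KO mesenteric pool of library 2 held 494 of the 845, and without it stromal cells held 41.59% and lymphatic cells 52.96% of the rest. In lymphatic cells it was at 23.73 and 15.01 CPM in WT peripheral, 19.07 and 20.67 in Xbp1-KO peripheral, 24.19 and 18.97 in WT mesenteric and 33.53 and 31.84 in Xbp1-KO mesenteric cells of libraries 1 and 2. Their mean was 23.38 ± 6.445 CPM (SD, n = 8), and both Xbp1-KO mesenteric pools lay above the other 6. High endothelial-like cells gave 14 Ccl19 UMIs in all (5.481 ± 6.983 CPM), other blood cells 5 UMIs in 3 of 4460 cells, and the unnamed blood cluster 0 in 435 cells, which allows a share of up to 0.6897% of cells with a UMI by a floor of 3 cells, or 0.8444% by the exact 95% binomial interval. In the edgeR fit, Ccl19 was 5.60 ± 0.39 (SE) higher on the log2 scale in lymphatic than in other blood cells. It fell by 2.41 ± 0.42 from lymphatic to high endothelial-like cells. The fold against other blood cells rests on those 5 UMIs and depends on how the fit treats counts near 0. No p-value is given for Ccl19 between these classes, because the gene passed the filter on low counts through the lymphatic pools, where it is high. High endothelial-like and other blood cells, with 14 and 5 Ccl19 UMIs, are not compared.

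Cxcl12, the CXCR4 ligand, showed the opposite distribution within blood vessels. Other blood cells held 91.13% of its UMIs, and 4017 of 4460 of these cells (90.07%) carried at least 1. It was at 2787 and 2258 CPM in WT peripheral, 2715 and 2580 in Xbp1-KO peripheral, 2863 and 2542 in WT mesenteric and 2616 and 2661 in Xbp1-KO mesenteric cells of libraries 1 and 2. These 8 pools had a mean of 2628 ± 183.4 CPM (SD), the steadiest level of any of the 4 genes relative to its mean. In high endothelial-like cells Cxcl12 was at 161.8 and 15.81 CPM in WT peripheral, 21.37 and 63.69 in Xbp1-KO peripheral, 82.51 and 75.17 in WT mesenteric and 34.14 and 75.88 in Xbp1-KO mesenteric cells, always far under the other blood cells of the same pool. The class mean was 66.29 ± 46.53 CPM, and in lymphatic cells the mean was 18.53 ± 14.64 CPM (range 4.743 to 49.72). Cxcl12 fell by 5.27 ± 0.23 (SE) on the log2 scale from other blood to high endothelial-like cells (edgeR, adjusted p = 1.66e-20) and fell by 7.37 ± 0.22 from other blood to lymphatic cells (adjusted p = 2.12e-26), and was 2.09 ± 0.28 higher in high endothelial-like than in lymphatic cells (adjusted p = 5.50e-08). Each of these 3 differences had this direction in all 13 alternative fits, but their size moved: with finer clusters (resolution 2), where the high endothelial-like class takes in 366 further cells, high endothelial-like minus other blood was -2.997 and high endothelial-like minus lymphatic 4.55.

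Cxcl13, the CXCR5 ligand, was almost confined to stromal cells in these counts. They held 295 of its 323 UMIs (91.33%) in 13 of 121 cells. Of the rest, 19 UMIs came from 2 other blood cells of the WT mesenteric pool of library 1, with 13 and 6 UMIs, 8 from 8 lymphatic cells and 1 from a high endothelial-like cell. No dividing or unnamed blood endothelial cell held any.

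**Figure D1:**
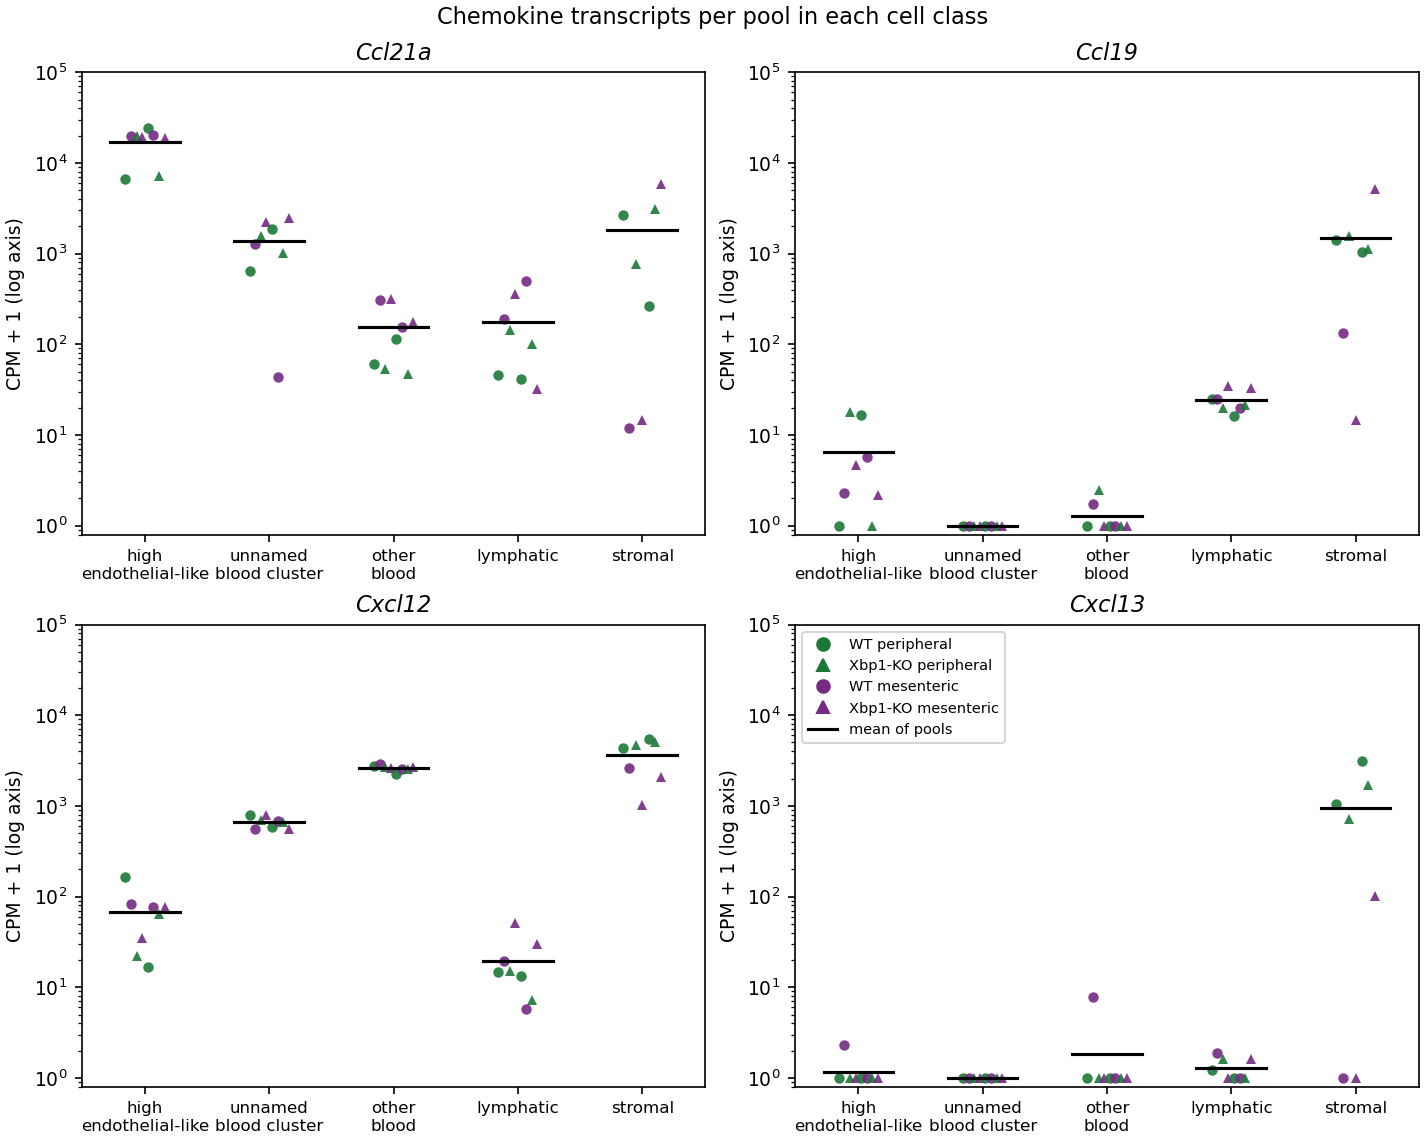
Level of each chemokine (CPM, log axis, 1 CPM added) in each cell class, 1 point per pool with its tissue by colour and its genotype by shape, and the mean of the pools as a bar. Ccl21a stands highest in high endothelial-like cells at 6730 to 24450 CPM, Cxcl12 in other blood and stromal cells, and Ccl19 and Cxcl13 in stromal cells.

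Within the classes, cluster means are given over pools with at least 10 cells. For Cxcl12 they were 3390 CPM in the capillary-like Col13a1 cluster and 2952 CPM in stromal cells, an order that turns when all cells are pooled (3087 and 3179 CPM), followed by the arterial-like cluster (2900), the cluster led by Hspa1a and Sox17 (2854), the Fabp4 capillary-like cluster (2461) and the cluster led by Aqp1 and Igfbp3 (2246). It then dropped to 665 in the unnamed blood cluster and 519 in the venous-like cluster, and to at most 131 in every other cluster of at least 50 cells. Along the order of cluster means, 56 pairs of neighbours were compared within pools with exact sign-flip tests, and none passed after adjustment (smallest adjusted p = 0.437). In this design no exact p lies below 0.00781 with 8 pools or 0.0156 with 7, so many pairs would have to reach that floor together for any to pass. For some of the 56 the outcome was fixed, because both clusters were at 0 in every pool or only 2 pools held both, where no p lies below 0.5. The drop of Cxcl12 between the Aqp1 cluster and the unnamed cluster held in 7 of 7 pools (exact two-sided p = 0.0156 before adjustment, the smallest that 7 pools allow).

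Ccl19 within lymphatic cells belonged to the floor-like cluster, led by Ccl20 and Coch, markers of the endothelium on the inner side of the subcapsular sinus. This cluster of 1245 cells held 407 of the 447 lymphatic UMIs, at 65.44 ± 16.59 CPM (SD; range 46.87 to 100.4 over 8 pools), and 22.01% of its cells carried 1 or more. The Marco cluster came next at 8.585 ± 3.4 CPM, lower in 7 of 7 pools (exact two-sided sign-flip p = 0.0156 before and 0.437 after adjustment over the 56 pairs). In the ceiling-like cluster, led by the scavenger receptor Ackr4, 5 of 1114 cells held a Ccl19 UMI.

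Ccl21a outside high endothelial-like cells was uneven. Cluster means were 1617 CPM in the venous-like, 1581 in the unnamed blood, 885.4 in the lymphatic cluster led by Igfbp5 and Lcn2, 347.4 in the Aqp1 cluster and 276.6 in the Ptx3 lymphatic-like cluster, and 15.73 to 34.2 in the other 7 blood and lymphatic clusters. Pools of a cluster differed widely, from 8.152 to 2664 CPM in the lymphatic Igfbp5 cluster and from 57.37 to 2986 CPM in the venous-like cluster. Glycam1, a mucin transcript that high endothelial cells make in large amounts, gives a comparison: Ccl21a UMIs were 0.1898 of the Glycam1 UMIs in high endothelial-like cells (0.07378 to 0.4749 over the 8 pools), 0.11 to 0.166 of them in 6 of the clusters with low Ccl21a, and 1.179 to 6.561 in the venous-like, unnamed, Igfbp5, Aqp1 and Ptx3 clusters. Whether RNA released from high endothelial-like cells contributed to the low values was not tested. In the floor-like lymphatic cluster the ratio was 0.002019, with Glycam1 at 8641 CPM.

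**Figure D2:**
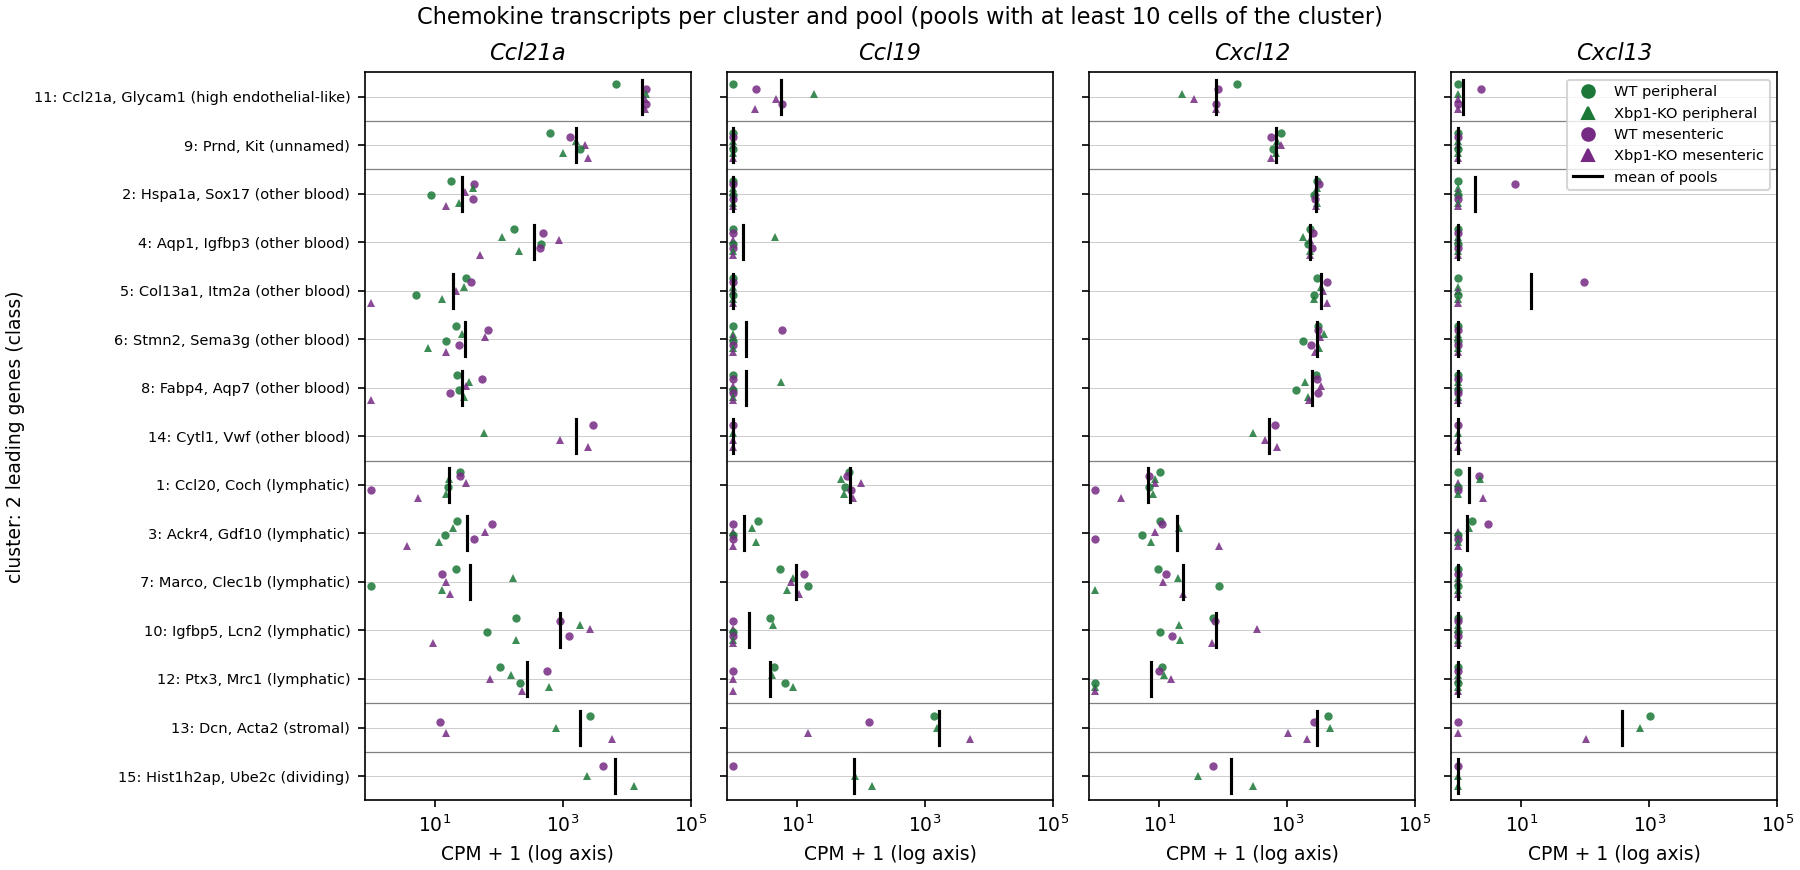
Level of each chemokine (CPM, log axis, 1 CPM added) in each cluster of at least 50 cells, 1 point per pool with at least 10 cells of the cluster, and the mean of these pools as a bar. Ccl19 among lymphatic clusters stands out in the Ccl20 and Coch cluster at 46.87 to 100.4 CPM, and Cxcl12 is near 2246 to 3390 CPM in 5 other blood clusters.

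Per cell, Ccl21a took a median of 1.73% of all UMIs of a high endothelial-like cell and up to 10.62%, with as many as 1208 UMIs in a cell, and 319 of 422 cells gave it at least 0.5%. In the other classes it sat in few cells. Only 18 of 4460 other blood cells gave at least 0.5% of their UMIs to Ccl21a, and they held 74.29% of the class's Ccl21a UMIs. None of the 18 had a Prox1 UMI and 7 had a UMI of Fut7 or Chst4, enzymes of high endothelial glycan synthesis. In lymphatic cells 22 of 3702 cells passed that share and held 70.67% of the UMIs, of which 11 had a Prox1 UMI and none gave 0.5% of its UMIs to Glycam1. In the unnamed blood cluster 26 of 435 cells did. Whether such cells were doublets, misplaced cells or a state of their own was not tested.

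Cxcl12 was spread over other blood cells: the median cell gave it 0.1996% of its UMIs, and 717 of 4460 gave it at least 0.5%. Cells rich in both Ccl21a and Cxcl12 were counted next. With a share of at least 0.1% as the threshold, 333 high endothelial-like cells held Ccl21a and 6 held Cxcl12, with 4 in common, while 44 other blood cells held Ccl21a and 3162 held Cxcl12, with 12 in common. In stromal cells 10 of 11 Ccl21a cells also held Cxcl12. These counts carry no test of whether the genes share cells more or less often than their frequencies give.

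Depth differed between classes, and shares of cells with a UMI move with depth. With cells thinned to 1500 UMIs, which leaves out shallower ones (1 high endothelial-like, 414 other blood, 35 lymphatic and 5 stromal cells), 80.76% of high endothelial-like, 4.894% of other blood, 4.445% of lymphatic and 10.34% of stromal cells held Ccl21a, against 85.55%, 7.803%, 10.99% and 19.01% of all cells unthinned. For Cxcl12 the thinned shares were 83.69% in other blood, 49.14% in stromal, 9.264% in high endothelial-like and 1.663% in lymphatic cells, against 90.07%, 65.29%, 19.43% and 4.808%. These shares keep the order of the class means, apart from Ccl21a in lymphatic and other blood cells and Cxcl12 in stromal and other blood cells. Intervals and floors here cover counting error only.

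**Figure D3:**
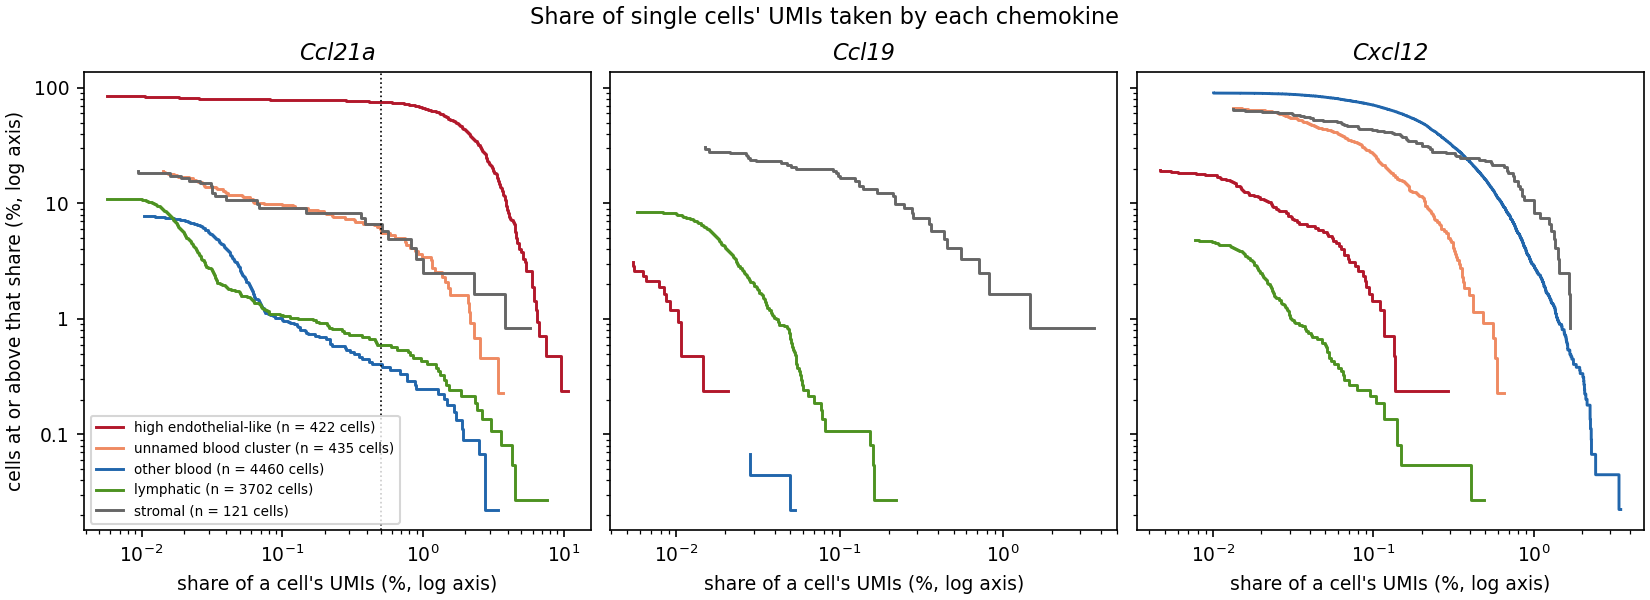
Percent of cells (log axis) whose share of UMIs from Ccl21a, Ccl19 or Cxcl12 is at or above the value on the horizontal axis (percent of a cell's UMIs, log axis), 1 line per class, with a dotted line at 0.5% for Ccl21a. For Ccl21a, 75.59% of high endothelial-like cells lie at or above 0.5%, against 0.4036% of other blood and 0.5943% of lymphatic cells.

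Stromal cells, the classical source of these chemokines, were few. At a finer clustering the 121 cells split into 77 mural cells, which surround vessels, and 44 fibroblastic cells. All Cxcl13-positive stromal cells were fibroblastic. Over all pools the fibroblastic cells held Ccl21a at 4255 CPM (17 of 44 cells with a UMI), Ccl19 at 3673 CPM (30 cells), Cxcl12 at 5898 CPM (41 cells) and Cxcl13 at 1302 CPM (13 cells). Without the Xbp1-KO mesenteric pool of library 2, in which single cells held most of the counts of the first and second of these genes, the 40 other cells held them at 1949 and 1643 CPM, Cxcl12 at 5861 CPM and Cxcl13 at 1428 CPM. In the mural cells the same genes were at 20.89, 45.26, 1034 and 0 CPM. In stromal cells, at a share of at least 0.1%, 19 of 21 Ccl19 cells also held Cxcl12, 8 of 10 Cxcl13 cells held Ccl19, and 8 of 11 Ccl21a cells held Ccl19.

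Over whole stromal sums, Ccl19 was at 1479 ± 1706 CPM and Ccl21a at 1806 ± 2175 CPM (SD, n = 7 pools), spreads as large as the means. Stromal Cxcl12 was at 4351, 5471, 4713 and 5034 CPM in peripheral pools and at 2616, 1020 and 2059 in mesenteric pools, which do not overlap. Stromal Ccl21a was 3.21 ± 0.81 (SE) higher on the log2 scale than in other blood cells (edgeR, adjusted p = 0.00313, 7 pools), in a comparison in which 25.8% of 5305 genes were called. The call was lost with library 1 alone, where the difference was 1.76 (edgeR, adjusted p = 0.325). In library 1 stromal Ccl21a was above that of other blood cells in the peripheral pools (2677 against 59.84 and 771.6 against 52.32 CPM). It was below it in the mesenteric ones (10.9 against 307.0 and 13.78 against 311.4 CPM, with 1 stromal UMI each). In library 2 it was above it in each pool tested. Cxcl12 differed by 0.30 ± 0.19 (adjusted p = 0.274), and Ccl19 and Cxcl13 had too few counts in other blood cells to be tested.

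Among fibroblastic cells, 25 came from the 4 peripheral pools and 19 from 3 mesenteric pools. Cxcl13 was at 1354 to 7095 CPM in the peripheral pools and at 0, 0 and 371.7 in the mesenteric ones, and Cxcl12 at 7671 to 12390 against 1656 to 6170, with no overlap for either gene. With 4 against 3 pools the exact permutation test gave p = 0.0286 for both, the smallest it allows, and 0.0571 after adjustment over the 4 genes. This comparison was chosen after the values had been seen. Ccl21a (598.3 to 8679 peripheral against 18.62, 24.72 and 21370 mesenteric) and Ccl19 (1705 to 4510 against 24.72, 223.5 and 18730) overlapped, both with an adjusted exact p of 0.343. The high mesenteric values came from the Xbp1-KO pool of library 2, in which a single cell held 517 of 575 Ccl21a UMIs and a single cell 494 of 504 Ccl19 UMIs. Of 5 follicular dendritic cell markers, Cr2, Fcer2a and Fdcsp were at 0 in all fibroblastic cells, Sox9 had 3 UMIs, and Clu, which many cell types express, was at 2257 CPM in peripheral and 1049 CPM in mesenteric cells. Of the fibroblast genes, Lum was at 170.7 CPM in peripheral and 1289 CPM in mesenteric cells and Col3a1 at 1128 and 3544 CPM, while Dcn was at 13210 and 14960 CPM and Pdgfra at 597.3 and 536.9 CPM. Mfap5 and Fbln1, matrix genes, were at 180.1 against 1041 CPM and 66.37 against 239.5 CPM. Of genes made by reticular cells, Il7 was at 85.33 and 0 CPM (9 and 0 UMIs), Tnfsf13b, the B cell survival factor BAFF, at 180.1 and 24.78 (19 and 3 UMIs), Bst1 at 151.7 and 90.86 (16 and 11 UMIs) and Tnfsf11, the RANK ligand, at 37.93 and 140.4 (4 and 17 UMIs). Whether the kinds of fibroblastic cell differed between the tissues was not tested.

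**Figure D4:**
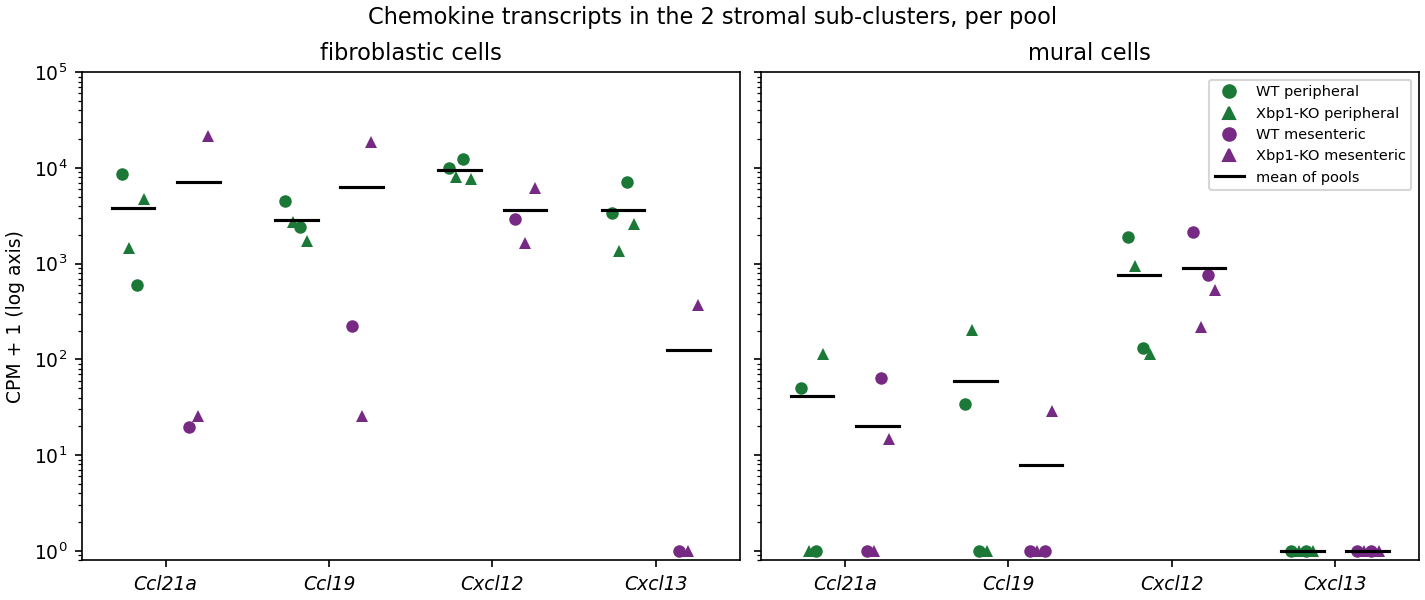
Level of each chemokine (CPM, log axis, 1 CPM added) in mural and fibroblastic cells, 1 point per pool by tissue and genotype. Fibroblastic Cxcl13 lies at 1354 to 7095 CPM in peripheral pools and at 0 to 371.7 in mesenteric pools.

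Between tissues, Ccl21a was called lower in peripheral than in mesenteric cells among other blood and lymphatic cells, and some settings lose either call. In other blood cells Ccl21a was at 59.84, 52.32, 113.3 and 45.58 CPM in peripheral pools and at 307.0, 311.4, 155.5 and 175.7 in mesenteric pools, with no overlap. It was 1.92 ± 0.28 (SE) lower on the log2 scale in peripheral cells (edgeR, adjusted p = 0.00787), in a comparison that called 0.895% of 9834 genes, 0.427% lower in peripheral cells (461 genes with the library as a block). The size moved with the setting, from -1.28 with library 2 alone to -2.46 with library 1 alone and -2.72 with clusters at resolution 2. The p was under 0.05 in 12 of 13 alternatives. Of these, clusters at equal weight gave an unadjusted exact p, and sums of at least 10 cells took in the same pools as the main fit. The call was lost without the venous-like cluster (-1.28, edgeR, adjusted p = 0.552), a setting added after the cluster levels had been seen. That cluster has 81 mesenteric cells with 741 of the 1710 mesenteric Ccl21a UMIs of the class and 24 peripheral cells with 7 of 379, and without it the Xbp1-KO mesenteric pool of library 2 dropped from 175.7 to 16.91 CPM, below all peripheral pools. With clusters at equal weight it was -2.09 (exact permutation p = 0.0286, the smallest that 4 against 4 pools allow). In the 5 other clusters of the class, each tested in 7 or 8 pools, the differences ran from -1.12 to 1.04, 3 lower and 2 higher in peripheral cells, and the pools of the tissues overlapped in each. Of the 18 cells with a share of at least 0.5%, 14 were mesenteric. Without the 18 the pools lay at 30.93, 52.32, 25.96 and 17.59 CPM in peripheral and at 59.99, 56.66, 23.1 and 35.52 CPM in mesenteric cells, which overlap. Since those cells were picked by their Ccl21a level, this describes where the counts lie and is no test.

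In lymphatic cells Ccl21a was at 45.11, 144.6, 40.93 and 100.5 CPM in peripheral pools and at 190.5, 357.3, 493.3 and 31.24 in mesenteric pools, which overlap through the Xbp1-KO mesenteric pool of library 2. The difference of -1.80 ± 0.49 (SE) was just past the threshold (edgeR, adjusted p = 0.0488), in a comparison that called 5.01% of 10666 genes, 3.03% lower in peripheral cells. It was not past it with another rule for hashtags (-1.19, adjusted p = 0.121), with DESeq2 (-1.92, adjusted p = 0.231) or with clusters at equal weight (-1.07, exact p = 0.343), and was -1.05 with library 2 alone. The 22 cells with a share of at least 0.5%, 11 of each tissue, held 70.67% of the UMIs, and without them the pools lay at 28.99 to 40.93 CPM in peripheral and 26.17 to 127.5 CPM in mesenteric cells, again a description of cells picked by their Ccl21a. Lymphatic Cxcl12 was at 13.68, 14.19, 12.28 and 6.249 CPM in peripheral pools and at 18.58, 49.72, 4.743 and 28.84 in mesenteric pools, which overlap. It differed by -1.06 ± 0.29 (adjusted p = 0.0510) and Ccl19 by -0.52 ± 0.18 (adjusted p = 0.119). When the library was added to the fit as a block, both were called lower in peripheral cells, at -1.12 (adjusted p = 0.00134) and -0.54 (adjusted p = 0.0455), in a fit that called 1392 genes against 534. With clusters at equal weight they were -0.53 (exact p = 0.629) and -0.20 (exact p = 0.257).

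In high endothelial-like cells, peripheral minus mesenteric was -0.25 ± 0.39 (SE) for Ccl21a and -0.27 ± 0.45 for Cxcl12 (edgeR, adjusted p = 0.968 for both), in a comparison that called 0.192% of 5743 genes. The Cxcl12 level of other blood cells differed by -0.06 ± 0.13 between tissues (edgeR, adjusted p = 1.0), and by -0.26 with clusters at equal weight (exact permutation p = 0.0286, the smallest possible). In the 5 clusters tested, the differences ran from -0.51 to -0.01. In the Col13a1 cluster, the only one of them whose tissues did not overlap, it was at 2604 to 3422 CPM in 4 peripheral and 3631 to 4271 CPM in 3 mesenteric pools (exact permutation p = 0.0571, adjusted p = 0.389 over 34 tests, of which none can fall below 0.0286 before adjustment). At the finer clustering the high endothelial-like class takes in 366 further cells of a cluster led by Enpp2 and Aqp1, and Ccl21a then differed by -1.87 (adjusted p = 0.0197) and Cxcl12 by 2.92 (adjusted p = 2.35e-06). The values for high endothelial-like cells therefore apply to the cluster as drawn here.

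Between Xbp1-KO and WT cells, Ccl21a and Cxcl12 could be tested in all 3 classes and Ccl19 in lymphatic cells, while Cxcl13, and Ccl19 elsewhere, had too few counts. With all pools, none of these tests passed the threshold. On simulated counts they recovered 20.5% of 2-fold changes in high endothelial-like cells, 73.7% in other blood and 78.9% in lymphatic cells. A change of that size could therefore be missed, above all in high endothelial-like cells. In high endothelial-like cells, where Ccl21a is abundant, Xbp1-KO minus WT was -0.04 ± 0.39 (SE) on the log2 scale (edgeR, adjusted p = 1.0). This averages libraries of opposite sign, 1.06 with library 1 alone and -1.14 with library 2 alone. In library 1 the Xbp1-KO peripheral pool was the higher one and in library 2 the lower. In each library the higher peripheral pool (20050 and 24450 CPM, against 6730 and 7134) was the one with Xist in most cells. Mesenteric pools lay at 18950 to 20220 CPM. Whether the level of Xist bears on Ccl21a was not tested, and the fit does not account for it. For Cxcl12, Xbp1-KO minus WT was -0.96 ± 0.45 (edgeR, unadjusted p = 0.0394, adjusted p = 0.9998). In other blood cells the differences were -0.33 ± 0.27 for Ccl21a and 0.04 ± 0.13 for Cxcl12. In lymphatic cells they were 0.32 ± 0.48 for Ccl21a, 0.18 ± 0.18 for Ccl19 and 0.49 ± 0.28 for Cxcl12. These edgeR tests called 0% of genes in each class, with 224, 238 and 648 genes at an unadjusted p under 0.05 in high endothelial-like, other blood and lymphatic cells, and DESeq2 called 0, 0 and 11. With the library as a block, edgeR called 0, 15 and 98 genes, none of them a member.

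In lymphatic cells, Ccl21a was higher in the Xbp1-KO than in the WT pool in 3 of 4 pairs of the same library and tissue: 144.6 against 45.11 CPM and 100.5 against 40.93 CPM in peripheral nodes of libraries 1 and 2, and 357.3 against 190.5 CPM in mesenteric nodes of library 1. In mesenteric nodes of library 2 it was lower, at 31.24 against 493.3 CPM. Without the 22 lymphatic cells with a share of at least 0.5%, peripheral Xbp1-KO against WT was at 35.59 against 33.38 CPM in library 1 and at 28.99 against 40.93 in library 2. In mesenteric nodes it was then at 49.04 against 26.17 and at 31.24 against 127.5 CPM. Those cells were picked by their Ccl21a level, so this is no test. The fitted Xbp1-KO minus WT difference was 1.25 with library 1 alone and -1.31 with library 2 alone, each past the threshold (edgeR, adjusted p = 2.82e-05 and 1.21e-04). These are fits of 4 pools with 1 pool per group that assume no interaction, and the sign in library 2 is that of its mesenteric pair. The difference of the Xbp1-KO effect between tissues was not called for these genes in the classes where they could be tested, with 0% of genes called in the 3 classes (edgeR; 220, 165 and 308 genes at an unadjusted p under 0.05; 0, 0 and 2 genes called by DESeq2, and 0, 3 and 15 by edgeR with the library as a block). For lymphatic Ccl21a it was 2.32 ± 0.96 and for lymphatic Cxcl12 -1.48 ± 0.57, with unadjusted p-values of 0.0307 and 0.0214 and adjusted ones of 1.0.

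**Figure D5:**
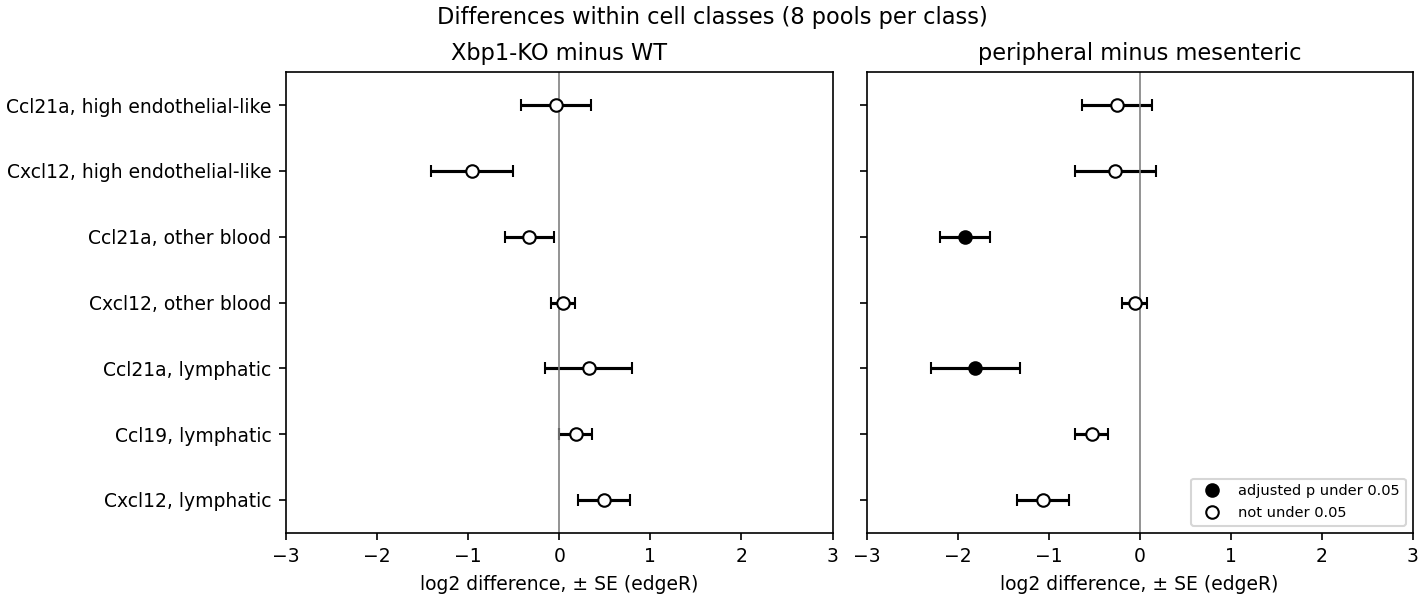
Log2 differences within cell classes (8 pools per class) of the chemokines with enough counts to be tested (Ccl21a and Cxcl12 in each class, Ccl19 in lymphatic cells), Xbp1-KO minus WT and peripheral minus mesenteric, with bars for the standard error and filled points where the adjusted p of the edgeR test was under 0.05. Of these points, Ccl21a between tissues in other blood and lymphatic cells is filled.

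Genes that act around these chemokines differed between the classes as well. Of the signalling receptors Ccr7, Cxcr4, Cxcr5 and Cxcr3, Cxcr4 alone had enough counts, and it fell by 6.37 ± 0.53 (SE) on the log2 scale from other blood to high endothelial-like cells and fell by 4.65 ± 0.22 to lymphatic cells (edgeR, adjusted p = 1.19e-12 and 8.55e-21). Of 6 atypical receptors, which take up chemokines without signalling, 3 rose and 2 fell in high endothelial-like against other blood cells (over all genes tested, 15.9% rose and 23.8% fell), and 4 rose and 2 fell in lymphatic cells (35.2% and 24.8%). Ackr4, the scavenger of CCL19 and CCL21, rose by 6.82 ± 0.18 in lymphatic cells. Ackr2, a scavenger of inflammatory CC chemokines, rose by 5.41 ± 0.39 in high endothelial-like and by 6.52 ± 0.25 in lymphatic cells. Ackr3, the scavenger of CXCL12, fell by 5.04 ± 0.44 from other blood to high endothelial-like cells. Ackr1, which carries inflammatory chemokines across venules, rose by 4.14 ± 0.19 in high endothelial-like cells and fell by 1.56 ± 0.26 in lymphatic cells. Gpr182, also a chemokine scavenger, rose in both, by 3.20 ± 0.14 and 3.59 ± 0.13.

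Of 12 tested genes of the lymphotoxin and NF-kB list, 8 rose and 0 fell in high endothelial-like cells (median log2 difference 0.73, against -0.11 over all genes, of which 15.9% rose and 23.8% fell). The list was not split into genes that drive and genes that restrain the pathway, so these counts give no direction for it. In lymphatic cells 9 rose and 1 fell (median 1.19, against 0.09 over all genes, of which 35.2% rose and 24.8% fell). Ltb, a chain of the lymphotoxin ligand, rose by 3.21 ± 0.27 (SE) and 5.94 ± 0.19 (edgeR, adjusted p = 1.33e-12 and 9.39e-26). Relb, the partner of p52 in the noncanonical pathway, rose by 1.31 ± 0.13 in high endothelial-like cells. Tnfrsf11a, the receptor of RANK ligand, rose by 1.65 ± 0.24 and 2.76 ± 0.15. Birc2, a ubiquitin ligase of the same pathway, rose by 1.63 ± 0.16 and 2.45 ± 0.13, and its relative Birc3 by 1.83 ± 0.13 in lymphatic cells.

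Heparan sulfate holds chemokines on cell surfaces. Of 17 tested genes of its synthesis and carriers, 2 rose and 8 fell in high endothelial-like cells (median -0.53; over all genes 15.9% rose and 23.8% fell) and 9 rose and 5 fell in lymphatic cells (median 0.33; over all genes 35.2% and 24.8%). Sulf1, which removes sulfate from heparan sulfate, rose by 2.93 ± 0.26 (SE) in high endothelial-like cells (edgeR, adjusted p = 9.99e-12), while Sdc3, a carrier protein, fell by 2.44 ± 0.21, the sulfotransferase Hs6st1 fell by 1.34 ± 0.25 and the glycosyltransferase Extl3 fell by 1.26 ± 0.24. In lymphatic cells Sulf2 rose by 4.97 ± 0.23 and the carriers Sdc1, Sdc4 and Gpc1 by 4.40 ± 0.24, 3.15 ± 0.14 and 3.10 ± 0.21.

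Of 4 tested genes that modify chemokines or the receptor CCR7, 2 rose and 1 fell in high endothelial-like cells (median 0.97; over all genes 15.9% rose and 23.8% fell) and 3 rose and 1 fell in lymphatic cells (median 2.69; over all genes 35.2% and 24.8%). St8sia4, the polysialyltransferase that modifies CCR7, fell by 1.42 ± 0.14 (SE) in the former and fell by 4.77 ± 0.13 in the latter (edgeR, adjusted p = 6.91e-11 and 2.94e-27). Mmp9 rose by 6.51 ± 0.20 in lymphatic cells, and the proteases Mmp14 and Ctsd rose in both, by 0.77 ± 0.21 and 1.25 ± 0.12 in high endothelial-like and by 3.13 ± 0.12 and 2.26 ± 0.11 in lymphatic cells. Of 7 tested niche ligands, 2 rose and 3 fell in high endothelial-like cells (median 0.47) and 4 rose and 3 fell in lymphatic cells (median 2.79), to be read against the same shares over all genes. Cx3cl1, a membrane-bound chemokine, fell by 5.73 ± 0.39 in high endothelial-like cells and fell by 4.09 ± 0.16 in lymphatic cells. Bst1, an ectoenzyme, rose by 2.44 ± 0.24 in high endothelial-like cells, where the growth factor Csf1 fell by 1.45 ± 0.22 and Kitl fell by 0.67 ± 0.14. In lymphatic cells Csf1, the chemokine Cxcl16 and Il7, the survival factor of T cells, rose by 3.75 ± 0.12, 3.43 ± 0.13 and 3.27 ± 0.19. No gene of these lists was called between Xbp1-KO and WT cells. Between tissues 5 were called, named here after their values had been seen: 1 of 41 tested in other blood cells (2.44%, against 0.895% of all genes) and 4 of 48 in lymphatic cells (8.33%, against 5.01%). In peripheral cells Ackr1 fell by 1.52 ± 0.24 among other blood cells (adjusted p = 0.0107), and among lymphatic cells Ltb fell by 0.48 ± 0.11, Cxcl16 fell by 0.68 ± 0.13, and Sdc2 and Kitl rose by 1.48 ± 0.37 and 0.65 ± 0.17.

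Across the 15 clusters of at least 50 cells, the genes whose levels ran most like each chemokine were ranked by Pearson's r of log2(CPM + 1) over 5726 genes. For Ccl21a they were 2810004N23Rik (0.83), Dclk1 (0.74), Sec61g (0.74), Rpsa (0.74) and Npm1 (0.74). For Ccl19 they were F3, Islr, Tnfaip6, Tnxb and Spry2 (0.87 to 0.89), and for Cxcl13 Il34, Col1a1, Cd248, Hoxc8 and Tbx2 (0.97 to 0.98), all highest in the stromal cluster. For Cxcl12 they were Nes, Sparcl1, Id3, Filip1 and Fzd4 (0.96 each), highest in 4 of the other blood clusters. The points share 2 libraries and differ in depth, and the Ccl19 and Cxcl13 values rest on the stromal cluster.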

How the data were processed

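The deposited values are raw counts of UMIs per gene and cell barcode, made by the authors. The file headers name Cell Ranger 6.0.1 and the submitters' processing notes version 6.1 and build mm10; the annotation and the handling of intronic reads are not given in the sources used here. The labels' protocols name a version 2 kit and the series' design 3′v3 chemistry. All columns of the files were used. Of 32285 gene identifiers, 32235 (99.85%) had an entry in GENCODE M21 (GRCm38), the source of coordinates. The 4 members, the gene lists and the tests were chosen with earlier results of these data known.

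Hashtags were called per library with HTODemux (Seurat 5.3.0, R 4.3.3, positive quantile 0.99), which left 6786 and 2690 barcodes with a single tag in the libraries 1 and 2, while 685 and 130 with several tags were dropped as doublets. Cells needed at least 500 genes and at most 10% mitochondrial UMIs, and Scrublet marked 65 and 4 further doublets. Cells were clustered in scanpy 1.11.5 (Python 3.11.15) on 1971 variable genes, without the members, with 30 principal components, 15 neighbours and Leiden resolution 1. A cluster took a name from fixed marker lists when at least 3 markers were found in at least 10% of its cells; lymphatic clusters had Prox1 in at least 25% of cells. That rule was set after the clusters had been seen.

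Raw counts were summed per pool and class (at least 5 cells) and tested with edgeR 4.0.16 (TMM, filter on low counts, quasi-likelihood test, Benjamini-Hochberg over all genes tested), with the pool as a block between classes. Exact tests over pools used scipy 1.17.1 and log2(CPM + 1). Named genes were the 4 members in every comparison, up to 4 called genes with the largest change in each of 6 pathway lists, and the 5 genes most correlated with each member over clusters. Pools with the same number share a droplet library, per the labels, which is where the pairing comes from. Deviations of such pools correlated at 0.227 to 0.7811 in other blood, -0.04307 to 0.589 in lymphatic and -0.03097 to 0.3299 in high endothelial-like cells. In each class the highest values lay between the peripheral and mesenteric pools of the same genotype. These were 0.6791 (WT) and 0.7811 (Xbp1-KO) in other blood, 0.5671 and 0.589 in lymphatic and 0.3299 and 0.2732 in high endothelial-like cells. No fit of tissue or genotype paired pools by library and genotype together. Alternatives were RLE size factors, DESeq2 1.42.0, no filter, the block, WT pools only, a ratio rule for hashtags, resolution 2, at most 5% mitochondrial UMIs, members left out of library sizes or kept among clustering genes, clusters at equal weight, a pseudocount of 10 CPM, thinned cells, each library left out and, added after the cell numbers had been seen, sums of at least 10 cells. Stromal values without the pool or cell that held most UMIs of a gene, and other blood cells without the venous-like cluster, were added after their values had been seen. The edgeR tests were checked on simulated counts. For Xbp1-KO minus WT they recovered 20.5% of 2-fold and 84.9% of 4-fold changes in high endothelial-like cells. In other blood cells they recovered 73.7% and 90.6%, and in lymphatic cells 78.9% and 98.9%. For lymphatic minus other blood cells they recovered 98.9% and 100%.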

Additional observations from a re-analysis of the deposited data

Results flagged for a closer look

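Among groups of 4 pools, 35 were examined for a pool that stands apart (Dixon's criterion at 95%), and 2 had one; chance gives about 1 in 20. Ccl21a in high endothelial-like cells of the Xbp1-KO pools was lowest in the peripheral pool of library 2, at 7134 CPM from 5 cells, while the other 3 pools lay at 18950 to 20050 CPM. Cxcl12 in high endothelial-like cells of the mesenteric pools was lowest in the Xbp1-KO pool of library 1, at 34.14 CPM, while the other 3 lay at 75.17 to 82.51 CPM. No cause was tested for either value.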

How the results depend on the processing

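Between classes, Ccl21a and Cxcl12 kept direction and call in all 13 alternatives for high endothelial-like against other blood or lymphatic cells. So did Cxcl12 for lymphatic against other blood cells. Ccl19 kept its direction in both comparisons with lymphatic cells, which are not read as tests because it passed the filter through the lymphatic pools. Lymphatic minus other blood Ccl21a, not called, changed sign without the block (0.030, no replicate block) and at resolution 2 (0.45). Counts of called genes fell with WT pools only to 2143 (high endothelial-like against other blood) and 2577 (against lymphatic). Leaving out 1 library gave 2051 to 2691, 3519 to 5133 (lymphatic against other blood), 2483 to 3699 (high endothelial-like against lymphatic) and 842 to 1320 (stromal) called genes. Stromal Ccl21a ranged from 1.76 to 4.41 with a library left out. Without the filter on low counts 3019 stromal genes were called. Stromal Cxcl12, not called, was -0.055 without the filter and -0.051 with sums of at least 10 cells.

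With the library as a replicate block, called genes were 15 (genotype), 461 (tissue) and 3 (difference of the genotype effect between tissues) in other blood cells, and 98, 1392 and 15 in lymphatic cells. Lymphatic Cxcl12 (-1.12) and Ccl19 (-0.54) were then called lower in peripheral cells; the block changed no other call on a member. Cxcl12 there was also called with RLE size factors (-1.07) and without the filter (-1.03). Lymphatic Ccl21a between tissues was not called with the ratio rule (-1.19), DESeq2 (-1.92) or equal weight (-1.07). Other blood Ccl21a between tissues was not called with the venous-like cluster left out (-1.28, adjusted p = 0.552). With clusters at equal weight, Cxcl12 was lower in peripheral other blood cells (-0.26), with an unadjusted exact permutation p of 0.0286, the smallest possible. DESeq2 called 11 (genotype), 351 (tissue) and 2 (interaction) genes in lymphatic cells.

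Without the filter, genotype gave 2, 27 and 71 called genes in high endothelial-like, other blood and lymphatic cells, tissue 18, 314 and 876, and the interaction 13 in other blood and 25 in lymphatic cells. In high endothelial-like cells the ratio rule gave 1 gene each for genotype and interaction, sums of at least 10 cells 3 for tissue, and resolution 2 638 for tissue, with Ccl21a at -1.87 and Cxcl12 at 2.92.

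With 1 library left out, in fits of 4 pools without replicates in a group, called genes ranged from 0 to 12 (genotype) and 0 to 1 (tissue) in high endothelial-like cells, 73 to 117 and 251 to 518 in other blood cells, and 33 to 47 and 174 to 1123 in lymphatic cells. Genotype differences ranged from -1.14 to 1.06 for high endothelial-like Ccl21a, -0.084 to 0.19 for other blood Cxcl12, -1.31 to 1.25 for lymphatic Ccl21a and -0.13 to 0.56 for lymphatic Ccl19. Tissue differences ranged from -0.13 to 0.0051 for other blood Cxcl12; high endothelial-like Cxcl12 gave 0.33 and lymphatic Cxcl12 -1.21 in the library that could be fitted. The interaction in high endothelial-like cells ranged from -2.22 to 2.07 for Ccl21a and -1.20 to 1.45 for Cxcl12.

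Differences that were not called changed sign elsewhere. Genotype in high endothelial-like cells gave Ccl21a 0.027 without the filter, 0.34 with the ratio rule and 1.12 with sums of at least 10 cells, and Cxcl12 0.096 at resolution 2. Genotype in other blood cells gave Ccl21a 0.092 at resolution 2 and 0.00054 at equal weight, and Cxcl12 -0.019 with the ratio rule. The ratio rule gave lymphatic genotype values of -0.37 for Ccl21a and -0.15 for Cxcl12, tissue values for Cxcl12 of 0.34 in high endothelial-like and 0.027 in other blood cells, and an interaction of -0.062 for other blood Cxcl12. The interaction in high endothelial-like cells gave Ccl21a 0.083 without the filter, 0.66 with the ratio rule and 2.30 with sums of at least 10 cells, and Cxcl12 0.50 at resolution 2 and 0.35 with at most 5% mitochondrial UMIs. The cause of these changes was not tested, beyond the 366 cells that resolution 2 adds.

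Equal weight could not be run for high endothelial-like cells, which are 1 cluster, nor for interactions. High endothelial-like peripheral sums of 5 to 30 cells, 19 of 323 Cxcl13 UMIs outside stroma in 2 cells, and 44 fibroblastic cells limit what these data can resolve.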

Other observations

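The 64 dividing cells held Ccl21a at 5520 ± 5042 CPM (SD, n = 5 pools), and 38 of them (59.38%) carried a UMI. In 19 it took at least 0.5% of the UMIs, and 16 of these 19 had a Prox1 UMI, 1 a UMI of Fut7 or Chst4, and none gave 0.5% of its UMIs to Glycam1. Ccl19 was found in 8 of the 64 cells. The 42 cells of the cluster with blood-cell markers held 1588 Ccl21a UMIs in 11 cells. The dividing cells are among the clusters of at least 50 cells in the comparison of neighbours and in the ranking by correlation. They enter no other test above, and the cluster with blood-cell markers enters none.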
